A study of Mus musculus with 2 samples.

Results

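A set of 36 genes of mitochondrial protein import was examined for LSD1 peaks in mouse primary brown adipocytes. LSD1, encoded by Kdm1a, removes methyl groups from histone H3 and acts mostly as part of corepressor complexes. The genes were taken by name from the 20722 autosomal protein-coding genes of GENCODE M21 that have an annotated protein-coding start. They comprise every symbol beginning with Tomm, Timm or Pam16, together with Dnajc19, Grpel1, Grpel2, Samm50, Mtx1, Mtx2, Chchd4, Gfer, Pmpca, Pmpcb and Hspa9. The rule used gene names and no measured value, but it was chosen with earlier results of these data known. The study comprised 2 libraries, 1 LSD1 immunoprecipitate made with a homemade antibody and 1 input library made without antibody. Both came from control brown adipocytes of C57BL/6 N mice at passages 2 to 3, grown on collagen with 20% fetal bovine serum. The differentiation agents were T3 (1 nM), indomethacin (125 nM), isobutylmethylxanthine (500 µM), insulin (850 nM), rosiglitazone (1 µM) and dexamethasone (1 µM), and the cells were fixed for 5 min on day 10. The file used is a single table of 59175 mm10 peaks from the immunoprecipitate, each carrying a score, and no file of the input was used here. Without replicates or read counts, no value below carries an error, the depth is unknown and no test was made.

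Peaks hold no expression, so the labelled cell type could not be checked by it. Promoter peaks were present at the adipocyte genes Cebpa (score 1619), Pparg (401), Fabp4 (110.05), Plin1 (93.9) and Adipoq (76.0). The brown fat genes Ppargc1a (403), Prdm16 (206), Elovl3 (120) and Cidea (103) had one, and Ucp1 and Dio2 had none. Of genes typical of other cells, Pdgfra (323) and Pecam1 (178) had one, and Ptprc, Adgre1, Cdh5 and Dlk1 had none.

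Nearly all mitochondrial proteins are encoded in the nucleus, made in the cytosol and threaded into the organelle. The translocase of the outer membrane (TOM) is the common entry gate. From there, presequence proteins pass through the TIM23 complex and are pulled in by the motor PAM, carrier proteins are inserted by TIM22 with the help of small TIM chaperones, and β-barrel proteins are inserted by the sorting and assembly machinery (SAM). The disulfide relay (MIA) folds proteins in the intermembrane space, and the processing peptidase (MPP) removes presequences in the matrix. Brown adipocytes are rich in mitochondria, and UCP1, the protein that lets them produce heat, belongs to the carrier family.

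LSD1 peaks lay at most import promoters, at moderate scores. Of the 36 genes, 31 had a promoter peak, meaning one that reached to within 1 kb of any of their protein-coding starts, which is 86.1% of them against 58.2% of all 20722 genes. The genes without one were Tomm20l, Mtx2, Timm8a2, Timm8b and Pmpcb. The score is the authors' own value. No label or header states its scale, so it serves only to rank peaks within the list. The highest promoter score of each occupied import gene had a median of 291 (quartiles 187 and 358, range 80.8 to 2066), against 318 (quartiles 159 and 574) for the 12066 genes with a promoter peak. Of the 31, 12 lay above the median of all occupied genes and 19 below it. A promoter peak in the top 10% of the list, at a score of 391 or more, was present at 7 import genes (19.4%) against 24.0% of all genes. A peak anywhere from 10 kb upstream to the gene end was present at 34 (94.4%) against 72.8% of all genes. The 34 are the 31 with a promoter peak and Tomm20l, Mtx2 and Timm8a2. Neither this share nor that of the top 10% is matched for CpG content.

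**Figure D1:**
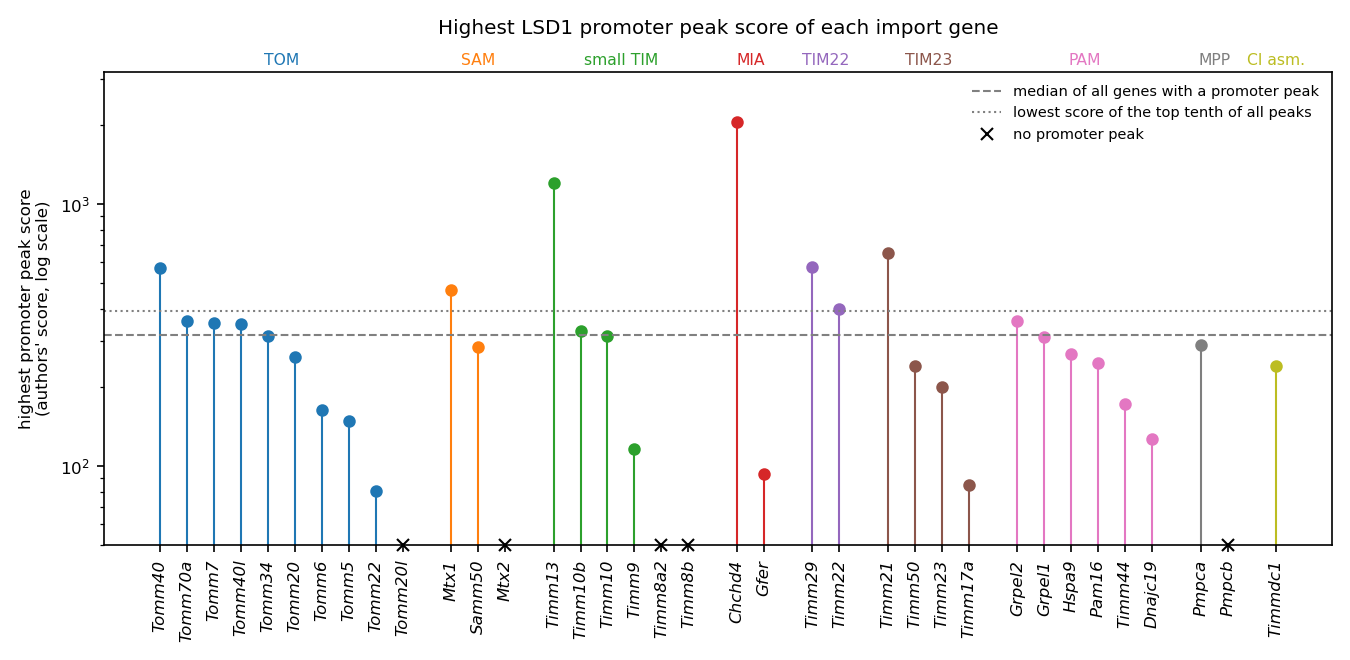
Highest promoter peak score (authors' score, log axis) of each import gene, grouped by role, with crosses for the 5 genes without a promoter peak; 1 library, so no error bars. The dashed line is the median of all occupied genes (318), the dotted line the lowest score of the top 10% (391), and Chchd4 (2066) and Timm13 (1209.8) stand above all others.

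The share with a peak went with the CpG content of the promoters. CpG content is the ratio of observed to expected CpG in the 1 kb around a start, and a gene with several starts takes its highest ratio. Import promoters had a median ratio of 0.771 against 0.628 for all genes, and 31 of the 36 lay in the 5 highest deciles. In those deciles 28 of 31 import genes (90.3%) and 88.4% of all 10361 genes had a promoter peak, a share near the background. Below them, 3 of 5 import genes had one. These were Tomm40l (ratio 0.448), Timm10b (0.580) and Timm44 (0.596), while Timm8a2 (0.473) and Tomm20l (0.561) had none. Among all genes the share was 40.7% in decile 4, which holds Tomm40l and Timm8a2, and 69.2% in decile 5.

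Scores of the import genes did not rise steadily with CpG content, with 2 to 8 occupied genes in each decile from 6 to 10. Median scores of all occupied genes were 288, 340, 377.5, 394 and 441 in deciles 6 to 10. Those of the import genes were 358, 248, 286, 291 and 147, above the median of all genes in decile 6 and below it in deciles 7 to 10. They rose from decile 7 to 9 as in all genes, and deciles 6 and 10 departed from that order. The members of decile 10 were Gfer, at 93.6, and Timm23, at 200.5. Gfer had the highest CpG ratio of the set (0.953), and its score exceeded only 5.16% of the occupied genes of its decile.

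**Figure D2:**
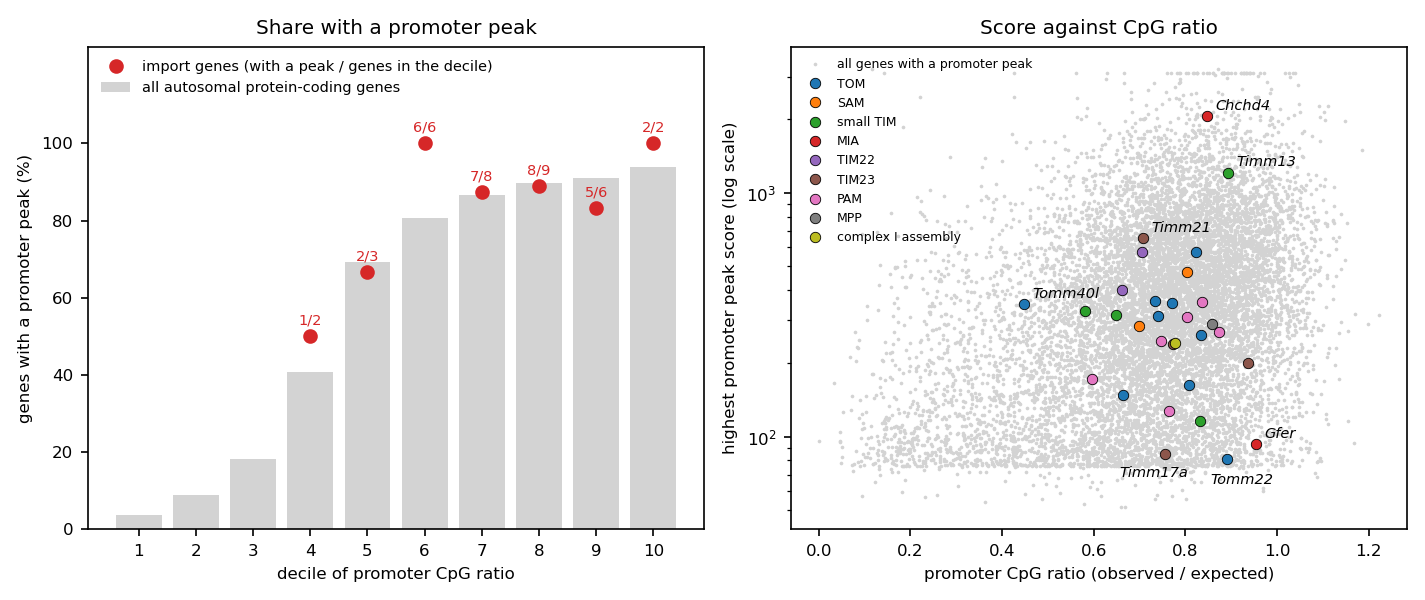
Left, percentage of genes with a promoter peak by decile of promoter CpG ratio, for all autosomal genes (bars) and for import genes (points, with counts). Right, highest promoter score (log axis) against CpG ratio for all occupied genes (grey) and import genes by role. Import points lie close to the bars in deciles 7 and 8, and Gfer combines the highest import CpG ratio (0.953) with a score of 93.6.

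The TOM genes formed the largest group, and 9 of its 10 had a promoter peak. Tomm40 encodes the protein-conducting channel and had the highest score of the group, 571, at a peak on chromosome 7, 19715011–19716397. Among the receptors that recognise incoming proteins, Tomm70a scored 359 (chromosome 16, 57121028–57121998) and Tomm20 scored 262, while Tomm22 scored 80.8, the lowest of all 31 occupied import genes. The small subunits that stabilise the complex also differed, with 353 at Tomm7 (chromosome 5, 23843818–23844488), 163 at Tomm6 and 149 at Tomm5. The Tomm6 value belongs to a peak over the start of Frs3, and the peak over a start of Tomm6 scored 75.5. Tomm34, a cytosolic cochaperone of import, scored 314. By the highest promoter score of each gene, subunits of 1 complex thus spanned 80.8 to 571.

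Of the copies of TOM genes, Tomm40l was occupied like Tomm40, and Tomm20l was unoccupied, unlike Tomm20. Tomm40l, a copy of the channel gene, scored 349 (chromosome 1, 171221666–171222798), a value above 79.4% of occupied genes in its CpG decile, whereas Tomm40 at 571 exceeded 71.2% in its own. Tomm20l, a copy of the receptor gene, had no promoter peak. Its nearest peak, in its own intron (chromosome 12, 71112873–71113464), scored 88.1 and began 1428 bp from the protein-coding start. The promoters of Tomm20 and Tomm20l are shown because they hold 24 and 13 CpG dinucleotides in the same 300 bases and only the first lies under a peak. Sequences here and below are RefSeq windows on GRCm38.p6, the assembly of mm10, read 5′ to 3′ along the gene. They run from 250 bases before the RefSeq start to 50 after it. Positions of matches count from that RefSeq start, whereas peak distances use GENCODE starts, and the starts can differ. Capitals mark exact matches to the consensus letters of NRF1 or ETS factors described below, and the Tomm20l window has none.
Tomm20, chr8:126945872-126946171, minus strand: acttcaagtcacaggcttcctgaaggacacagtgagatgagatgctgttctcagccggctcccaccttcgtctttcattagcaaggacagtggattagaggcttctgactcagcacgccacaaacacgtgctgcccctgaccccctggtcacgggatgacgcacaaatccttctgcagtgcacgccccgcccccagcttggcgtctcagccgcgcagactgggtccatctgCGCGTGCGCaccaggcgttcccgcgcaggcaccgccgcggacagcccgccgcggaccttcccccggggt
Tomm20l, chr12:71111178-71111477, plus strand: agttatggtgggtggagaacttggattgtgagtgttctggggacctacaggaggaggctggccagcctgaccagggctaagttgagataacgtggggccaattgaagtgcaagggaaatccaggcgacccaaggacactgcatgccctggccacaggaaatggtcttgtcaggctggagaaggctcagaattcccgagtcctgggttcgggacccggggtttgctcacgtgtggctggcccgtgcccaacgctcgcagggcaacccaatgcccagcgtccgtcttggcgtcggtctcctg

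The disulfide relay held the highest and one of the lowest scores. Chchd4 encodes MIA40, the oxidoreductase that traps cysteine-rich proteins in the intermembrane space. Its peak on chromosome 6, 91472951–91474802, was 1852 bp wide and scored 2066, above 98.9% of all occupied genes. The midpoint lay 330 bp upstream of the Chchd4 start, and the peak also covered the start of Tmem43, a nuclear envelope protein gene read in the other direction from 157 bp away. The score therefore cannot be assigned to either gene alone. Gfer encodes the sulfhydryl oxidase that reoxidises MIA40. Its peak (score 93.6, chromosome 17, 24694864–24695398) covered none of its 3 starts and lay 308 bp inside the gene from the nearest.

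Among the small TIM chaperones, which escort hydrophobic proteins across the intermembrane space, 4 of 6 had a promoter peak. Timm13 had the second-highest score of the import genes, 1209.8, at a 1360 bp peak on chromosome 10, 80900339–80901698, that covered no start of another gene. Timm8b, whose protein family forms hexamers with TIMM13, had no promoter peak and none within 10 kb. Its nearest peak (chromosome 9, 50565837–50566442, score 111) was 37468 bp from the start. Timm8a2, another gene of that family, had a single intronic peak (chromosome 14, 122036134–122036716, score 102) that began 1460 bp from its start.

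The partners of the other hexamer were also unequal. Timm10 scored 315 and Timm10b, which attaches the chaperones to TIM22, scored 328 (chromosome 7, 105639520–105640660). Timm9 had a pair of weak promoter peaks, 116 and 98.8, on both sides of its starts. The 499 bp between these peaks held all 9 annotated starts of Timm9, so neither peak covered a start.

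The windows of Chchd4, Timm13 and Timm8b are shown as the highest-scoring promoters and the unoccupied partner. Chchd4 and Timm13 each hold an NRF1 match, beginning at bases -195 and -193 from the RefSeq start. At Chchd4 this is not the GENCODE start (91473546) from which its peak was measured, so those positions are not comparable. Timm8b holds an ETS match beginning at base -12 and an NRF1 match beginning at base 20.
Chchd4, chr6:91473374-91473673, minus strand: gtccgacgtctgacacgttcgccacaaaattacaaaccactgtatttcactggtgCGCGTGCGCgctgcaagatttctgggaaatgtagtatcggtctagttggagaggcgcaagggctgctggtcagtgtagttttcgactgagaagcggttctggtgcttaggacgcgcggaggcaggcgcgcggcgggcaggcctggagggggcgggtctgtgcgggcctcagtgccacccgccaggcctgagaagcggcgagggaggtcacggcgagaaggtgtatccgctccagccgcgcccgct
Timm13, chr10:80900920-80901219, minus strand: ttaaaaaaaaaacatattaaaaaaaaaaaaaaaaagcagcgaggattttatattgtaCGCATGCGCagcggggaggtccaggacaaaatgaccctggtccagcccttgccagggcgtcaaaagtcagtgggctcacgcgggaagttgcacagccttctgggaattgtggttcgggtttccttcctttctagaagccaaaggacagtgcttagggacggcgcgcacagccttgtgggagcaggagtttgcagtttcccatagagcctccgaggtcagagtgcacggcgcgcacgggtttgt
Timm8b, chr9:50603651-50603950, plus strand: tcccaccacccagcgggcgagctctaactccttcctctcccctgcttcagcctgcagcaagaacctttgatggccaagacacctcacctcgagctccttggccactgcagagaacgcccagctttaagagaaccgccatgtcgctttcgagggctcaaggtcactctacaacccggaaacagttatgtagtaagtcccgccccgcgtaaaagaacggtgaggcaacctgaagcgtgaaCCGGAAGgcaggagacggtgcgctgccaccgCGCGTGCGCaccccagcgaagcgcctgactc

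The SAM genes included the longest import gene, Mtx2, which had no promoter peak. Mtx1, encoding an outer membrane partner of the β-barrel insertase, scored 472 at a peak on chromosome 3, 89213775–89215022, and had a second promoter peak of 162 that lay 388 bp upstream of its most distal protein-coding start. Samm50, the insertase itself, scored 285 and carried a further intronic peak of 295 (chromosome 15, 84212358–84213738), slightly above its promoter peak. Mtx2, which pairs with Mtx1 in the same complex, spans 52629 bp and had 1 peak in all, an intronic one 33716 bp from the start (chromosome 2, 74859519–74860020, score 117). Its promoter was CpG-rich (ratio 0.882, decile 9), where 90.9% of all genes had a promoter peak.

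The processing peptidase showed the same kind of split between partners. Pmpca, encoding the α subunit, scored 291 at a peak that also covered the start of Entr1, 23 bp away on the other strand. Pmpcb, encoding the catalytic β subunit, had no nearby peak at all, and the closest in the list (chromosome 5, 21702982–21703592, score 161) lay 33549 bp from a start. Its CpG ratio was 0.725, in decile 7, where 86.5% of all genes were occupied. The windows of Mtx2 and Pmpcb are shown as CpG-rich promoters without a peak. Each holds ETS matches, beginning at bases -25 and 7 in Mtx2 and at base -16 in Pmpcb.
Mtx2, chr2:74825562-74825861, plus strand: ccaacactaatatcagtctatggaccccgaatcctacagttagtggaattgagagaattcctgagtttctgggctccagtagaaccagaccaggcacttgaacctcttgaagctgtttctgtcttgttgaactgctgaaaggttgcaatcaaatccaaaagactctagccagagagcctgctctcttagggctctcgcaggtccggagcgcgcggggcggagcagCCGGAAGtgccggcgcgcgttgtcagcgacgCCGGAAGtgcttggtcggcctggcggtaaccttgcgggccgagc
Pmpcb, chr5:21736910-21737209, plus strand: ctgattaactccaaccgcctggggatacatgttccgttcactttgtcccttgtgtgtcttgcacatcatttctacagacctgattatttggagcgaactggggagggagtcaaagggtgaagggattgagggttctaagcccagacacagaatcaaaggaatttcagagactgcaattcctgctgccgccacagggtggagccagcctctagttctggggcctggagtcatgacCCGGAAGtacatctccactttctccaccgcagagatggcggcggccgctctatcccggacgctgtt

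Both genes of the carrier translocase had promoter peaks in the top 10% of the list. Timm22, the channel, scored 399.96 (chromosome 11, 76406462–76407456), with the midpoint 7 bp from a start. Timm29, a subunit found in animals, scored 574 at a 1578 bp peak (chromosome 9, 21592215–21593792) that also covered the start of Yipf2. Timm22 stands just above the limit of 391, and Tomm70a, at 359, is the first import gene under it.

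All 4 genes of the presequence translocase were occupied, over a wide range. Timm21, which docks TIM23 to the TOM complex, scored 654 (chromosome 18, 84951145–84952306) at a peak shared with the start of Fbxo15. Timm50, the presequence receptor, scored 241. The channel genes scored lower, 200.5 at Timm23, whose peak covered the start of Parg 51 bp away, and 84.7 at Timm17a. The channel subunits therefore lay at 31.8% and 6.00% of the ranking of all occupied genes, and Timm21 at 80.1%.

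All 6 genes of the import motor were occupied, none in the top 10%. The nucleotide exchange factors of the motor scored 358 at Grpel2 (chromosome 18, 61725875–61726624) and 311 at Grpel1. Hspa9, the Hsp70 that drives import, scored 268, and Pam16, a regulator of its J protein, scored 248. Timm44, which tethers the Hsp70 to the channel, scored 173, and Dnajc19, the J protein, scored 127. Timmdc1 shares the prefix by name but encodes an assembly factor of respiratory complex I, and it scored 241. The motor genes had the narrowest range among the groups of 3 or more occupied genes.

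Peaks were centred closely on import starts. The midpoint of the highest-scoring promoter peak lay within 100 bp of a start at 20 of 31 genes (64.5%), against 34.2% of all occupied genes. The median offset was 8 bp downstream (quartiles -54.5 and 62.5), against 5.5 bp (quartiles -148 and 197) for all. The peak covered a start of its gene at 28 of 31 (90.3%), against 82.0% of all. The exceptions were Gfer, Timm9 and Tomm6. At Tomm6 the higher peak (163) lay over the start of Frs3, 335 bp from the nearest Tomm6 start, and a weaker peak of 75.5 covered Tomm6 itself. Widths had a median of 963 bp against 1032 bp, and the import genes were shorter than others, with a median length of 10360 bp against 17600 bp. Both had a median of 2 starts. The shares and offsets given here are not matched for CpG content or peak width.

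**Figure D3:**
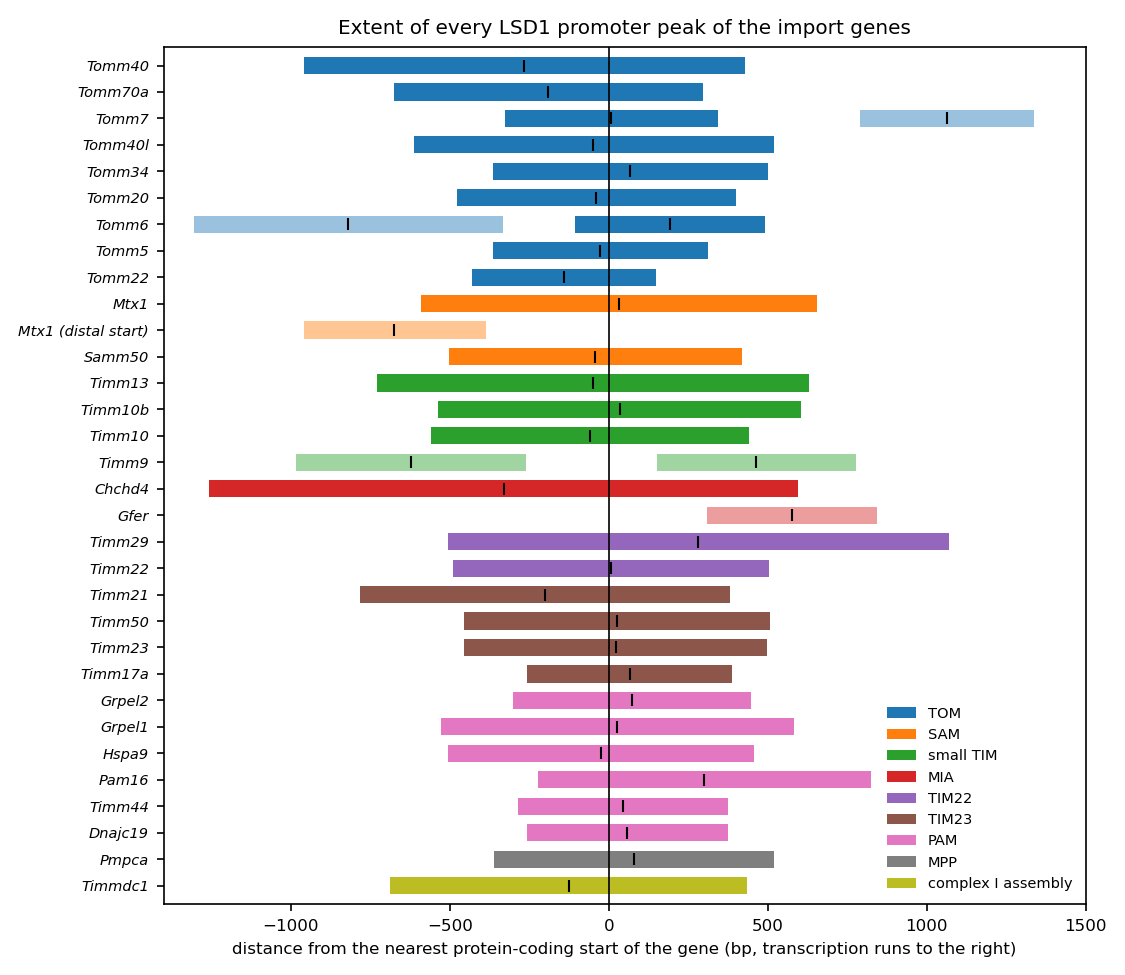
Extent of each promoter peak of the import genes in bp from the nearest protein-coding start of that gene, transcription to the right, with a tick at the midpoint and pale bars for peaks that cover no start of the gene. Bars of 1 gene can refer to different starts, and Mtx1 has a separate line for its distal start. Most bars straddle 0, and those of Timm9 and Gfer do not.

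Import genes were often arranged head to head with another gene. A start on the opposite strand within 1 kb upstream was present at 10 of 36 import genes (27.8%) and at 10.1% of all genes, shares not matched for CpG content. Of these 10, 9 had a promoter peak, against 88.5% of all 2098 genes so arranged, and in each of the 9 the same peak counted for the partner too. The partners were Frs3, Thbs3, 2700049A03Rik, Arfip2, Tmem43, Noxo1, Fbxo15, Parg and Entr1. The exception was Timm8b, whose start lies 98 bp from that of Sdhd, a membrane anchor of succinate dehydrogenase. Neither Timm8b nor Sdhd had a promoter peak. A promoter peak over the start of another gene was present at 7 of 31 occupied import genes (22.6%), against 17.6% of all occupied genes, also unmatched for CpG content.

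ETS consensus letters were frequent in the import promoters. Of the 36 genes, 31 had a RefSeq window, and Tomm7, Tomm40l, Timm21, Grpel2 and Hspa9 had none. Exact matches to 12 consensus sequences were sought on both strands, and the background was 15680 autosomal protein-coding genes with a window of the same length. CCGGAAG, bound by ETS factors such as GABP, a regulator of nuclear genes for mitochondria, occurred in 15 of 31 import genes (48.4%), 13.6% of all genes and 20.8% of the 8094 genes in the 5 highest CpG deciles. Examples are Timm10, with 3 matches, and Timmdc1, with 4, in which 2 matches on opposite strands overlap. GCGCANGCG, for nuclear respiratory factor 1 (NRF1), occurred in 5, namely Chchd4, Pam16, Timm13, Timm8b and Tomm20 (16.1%), against 10.2% of all and 17.4% of CpG-rich genes.

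The remaining 10 consensus sequences ranged from frequent to not found. GGGCGG, for SP and KLF factors, occurred in 19 (61.3%, against 51.65% of all genes and 75.3% of CpG-rich genes). CCAAT, for NFY, occurred in 9 (29.0%, against 41.7% of all genes and 41.9% of CpG-rich genes). AAGATGGCG, for YY1, occurred in 2, Mtx1 and Timm50 (6.45%, against 2.23% of all genes and 3.71% of CpG-rich genes), beginning at base 12 in both. CACGTG, the E-box, and TGANTCA, for AP1, occurred in 4 each (12.9%). Their shares were 9.22% and 8.20% of all genes, and 12.3% and 5.13% of CpG-rich genes. In the wider window of the closing section, the AP1 share of import genes was below that of all genes. AAGGTCA, for oestrogen-related receptors, occurred in 3 (9.68%, against 4.62% of all genes and 3.31% of CpG-rich genes). GAANNTTC, for heat shock factors, occurred in 1 (3.23%, against 8.44% of all genes and 6.70% of CpG-rich genes). TGACGTCA, TGATGCAA and ACTACAATT, for CREB, ATF4 with C/EBP, and ZNF143 with THAP11, occurred in 0, against 2.70%, 0.918% and 0.631% of all genes. Of CpG-rich genes, 3.99%, 0.544% and 0.791% held them. A match is a description of the letters and not a measured binding site. Matches of different consensus sequences were counted whether or not they overlapped.

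ETS letters did not separate import genes with and without a peak. A match was present in 11 of the 26 occupied import genes with a window and in 4 of the 5 without a peak, which were Mtx2, Pmpcb, Timm8a2 and Timm8b. Over all genes, 81.1% of those with an ETS match and 56.5% of those without had a promoter peak. For NRF1 the corresponding shares were 91.0% and 56.3%, and 4 of the 5 import genes with the NRF1 letters were occupied. The shares over all genes are not matched for CpG content. In the 5 highest CpG deciles 88.4% of all genes had a promoter peak.

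**Figure D4:**
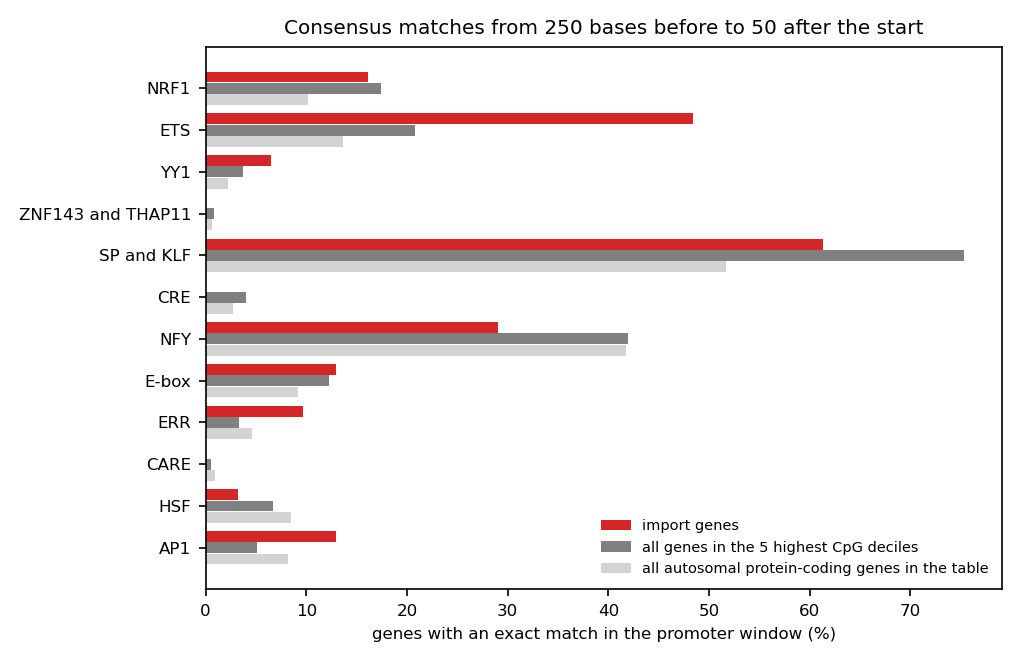
Percentage of genes with an exact consensus match in the window from 250 bases before to 50 after the start, for import genes (n = 31), all genes in the 5 highest CpG deciles (n = 8094) and all genes with a window (n = 15680). The ETS bars differ most, at 48.4% for import genes against 20.8% and 13.6%.

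Related genes of import, folding and quality control, 45 in all, were set beside the import set without a test. Like that set, they were chosen with earlier results of these data known. A promoter peak was present at 40, where the share was 58.2% over all genes and 88.4% over those in the 5 highest CpG deciles. Their median score was 458 (318 for all occupied genes), and 27 of the 45 had a promoter peak in the top 10%, against 24.0% of all genes. The median and the top 10% share are not matched for CpG content. Medians of all occupied genes ran from 288 in CpG decile 6 to 441 in decile 10. The counts of the single groups that follow are read against the same shares. Those that deliver proteins to the outer membrane or reside in it were occupied in 11 of 11 cases, with a median of 762. The highest were Dnaja1, a cytosolic Hsp70 cochaperone (1127), Vdac3, a porin (1126), and Mtch2, an outer membrane insertase (1032). Genes for later processing and membrane insertion were occupied in 9 of 9 cases (median 470.0). Cox18, an insertase for a cytochrome oxidase subunit (789), Bcs1l, an assembly factor of complex III (681), and Xpnpep3, a peptidase (623), were highest. Zfp142, a neighbouring gene, had the same highest score as Bcs1l, so that score cannot be assigned to Bcs1l alone.

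Matrix chaperones and membrane proteases were occupied in 11 of 14 cases (median 413). Dnaja3, a matrix J protein (600.3), Clpx, the unfoldase of the ClpXP protease (437), and Afg3l2, a subunit of the m-AAA protease (436), were highest. The chaperonin genes Hspd1 and Hspe1 shared a single highest peak of 413. Trap1, the mitochondrial Hsp90, Dnajc15, a paralogue of the motor J protein Dnajc19, and Phb2, a prohibitin, had none. Cristae junction genes and SAM partners were occupied in 6 of 8 cases (median 285), with 2410015M20Rik, a MICOS subunit gene (860), Immt, the MICOS core subunit mitofilin (693), and Chchd3, another subunit (318), highest and Mtx3 and Dnajc11 unoccupied. The 3 regulators of the mitochondrial stress response were all occupied, Atf5 at 975, Ddit3 at 835 and Atf4 at 516.

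**Figure D5:**
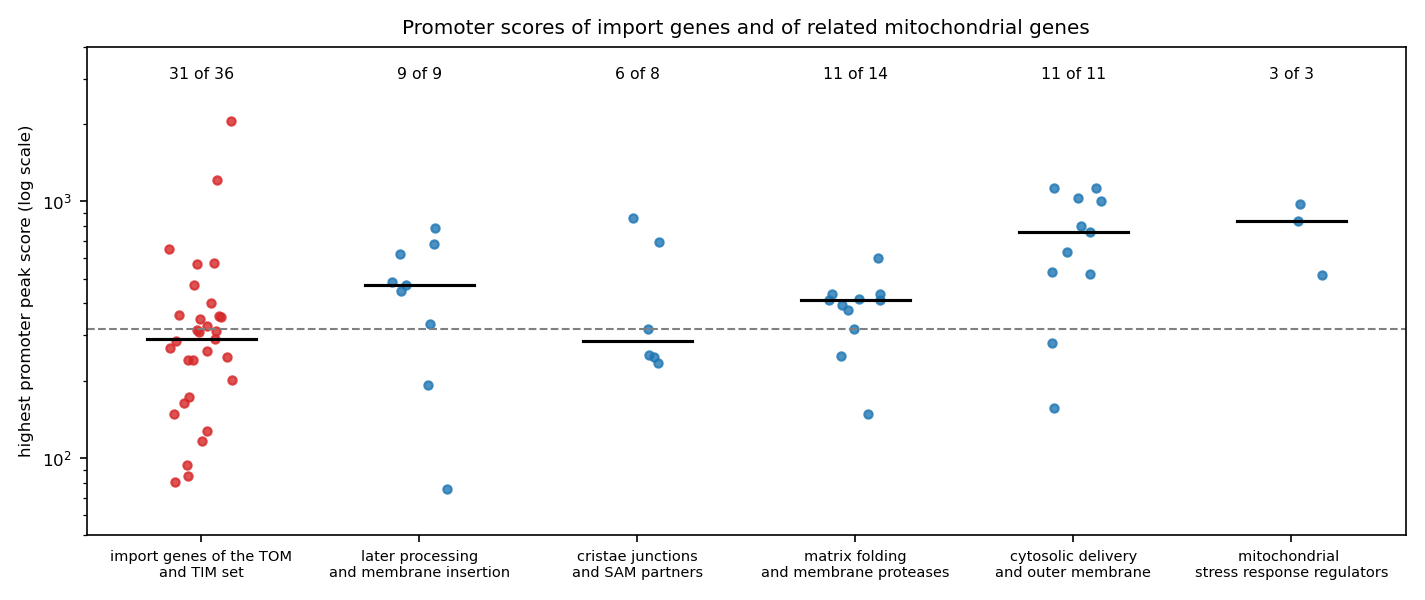
Highest promoter score (log axis) of each occupied gene in the import set (red) and in 5 groups of related genes (blue), with the median as a bar and the number occupied above; points are spread sideways at random. The dashed line is the median of all occupied genes (318), and the medians of the delivery group (762) and of the stress regulators (835) lie above it.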

How the data were processed

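The tools listed in the submitters' processing notes are Bowtie2 and MACS 1.41, and the build is mm10. The sources used here do not give the peak threshold, the read filters or the role of the input library. The authors deposited 1 peak list, and its score per peak is used as deposited. All coordinates count the first base as 1. Each peak was set against GENCODE M21 (GRCm38.p6, the chromosomes of mm10), leaving out 85 autosomal protein-coding genes without a protein-coding start. A gene was occupied when a peak overlapped by 1 bp the 1 kb on either side of any protein-coding start. The overlap step was tested on simulated peaks. RefSeq promoter windows were matched by symbol and were identical to the genome for all 19167 windows. The members, groups and lists were chosen with earlier results of these data known. All members are named; the 12 with the highest promoter scores and those without a promoter peak have peak coordinates. Also named are, from each related list, the 3 highest scores and every gene without a promoter peak. No protein sequence was used here. Alternatives in window, start choice, peak score and motif window are in the closing section. Python 3.11.15, numpy 2.4.6, scipy 1.17.1, pandas 2.3.3 and pysam 0.24.0 were used.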

Additional observations from a re-analysis of the deposited data

How the results depend on the processing

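The count of 31 occupied import genes was 31 with windows of 500 bp (56.0% of all genes), with midpoints required inside the window (56.5%), with the outermost start alone (54.9%) and with basic transcripts alone (57.5%), and 33 with 2500 bp (61.6%), which added Tomm20l and Timm8a2. With peaks at or above the median score it was 28 (49.6%), without Tomm22, Gfer and Timm17a. With only the top 10% of peaks it was 7 (24.0% of all genes), the median score was 574 (642.5 for all genes), and 8 import genes had a nearby peak (28.9% of all genes). With the outermost start alone, Mtx1 left the 7 high-scoring genes. The median otherwise ran from 268, when peaks over another gene's start were left out, to 312. In windows of 500 bases either side, 20 members had an ETS match (64.5%, against 22.1% of all genes). NFY letters were in 18 (58.1% against 72.7%) and those for oestrogen-related receptors in 13 (41.9% against 16.1%). The E-box was in 8 (25.8% against 19.5%) and heat shock factor letters in 6 (19.4% against 23.4%). SP and KLF letters were in 28 (90.3% against 66.1%), NRF1 letters in 7 (22.6% against 14.5%) and YY1 letters in 3 (9.68% against 4.11%). AP1 letters were in 5 (16.1% against 21.5%), below the share of all genes, unlike in the shorter window. Depth is unknown, so an unoccupied promoter means only that the list holds no peak there. A nearby peak was present at 36 import genes when counted from 50 kb upstream (82.4% of all genes), with Timm8b and Pmpcb added. No paired analysis was possible because each group has 1 library.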

Other observations

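Besides their promoter peaks, the import genes had 30 further peaks between 10 kb upstream and their ends, with a median score of 105 (64.6 to 411). Of these, 18 lay upstream, 10 in introns, 1 in an exon and 1 across the edge of a gene. Grpel1, the nucleotide exchange factor of the motor, had 4 upstream peaks on chromosome 5, at 36458346–36459099 (score 191), 36459291–36459971 (99.8), 36461119–36461768 (109) and 36462738–36463335 (113), all with Grpel1 as the nearest start. The highest of the 30, 411 at 105632823–105634265 on chromosome 7, lies upstream of Timm10b, with its midpoint 7 bp from the start of Trim3. The next, 317 at 76398448–76399724 on chromosome 11, lies upstream of Timm22, with its midpoint 54 bp from the start of Nxn.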
